A study of Capra hircus with 9 samples.

Results

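The genes described here are 10 regulators of the G1 phase of the cell cycle in the mammary gland of the goat. They were chosen by name, by the role of the protein in the cell cycle, with earlier results of these data known. They are the D-type cyclins CCND1, CCND2 and CCND3, the E-type cyclins CCNE1 and CCNE2, the cyclin-dependent kinase inhibitors CDKN1A, CDKN1B, CDKN1C and CDKN2C, and the growth arrest gene GADD45A. All 10 were among the 23499 genes of the table, and all 10 were among the 14701 genes that had at least 0.5 FPKM in at least 3 libraries and were tested. The values were treated as FPKM, a fragment count divided by transcript length and library size. On that reading levels can be compared between genes, within the limits given below for low values and for CCND3.

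The libraries came from whole mammary tissue of 9 healthy Laoshan dairy goats in the third parity, each slaughtered at 1 of 3 stages, with 1 library per goat and 3 libraries per stage. The late lactation goats (LL) were sampled 240 days postpartum, the dry period goats (DP) 300 days postpartum, and the late gestation goats (LG) 140 days after mating. Whole tissue holds secretory epithelium, myoepithelium, stroma, vessels and leukocytes in proportions that were not measured, so a lower level can come from fewer cells of a type or from less RNA per cell, which cannot be told apart. The question asked of the genes was how their mRNA levels differed between the stages, in 3 comparisons.

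A cell that leaves G1 to replicate its DNA first makes D-type cyclins, which bind the kinases CDK4 and CDK6, and then E-type cyclins, which bind CDK2. These kinases phosphorylate the RB protein and free the E2F transcription factors, which switch on the genes of DNA replication. CDKN1A (p21), CDKN1B (p27) and CDKN1C (p57) block cyclin-CDK complexes broadly, CDKN2C (p18) binds CDK4 and CDK6, and GADD45A is induced by DNA damage and growth arrest signals. The mammary gland grows its epithelium mostly in pregnancy, secretes milk with little cell division, and loses and rebuilds epithelium in the dry period. CCND1 is well known as a cyclin that mammary lobules need to form in pregnancy. Much of the control of these proteins is by phosphorylation and degradation, which mRNA levels do not show.

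Milk genes took a large part of the LL libraries. The 10 highest genes held 80.6 to 86.0% of the summed FPKM in LL, 53.6 to 58.1% in DP and from 55.0 to 58.5% in LG. On the deposited values all 10 members were higher in every DP library than in any LL library, as were 84% of all genes tested, and the median gene was higher by 1.09 on the log2 scale. The values were divided by a scaling factor per library, and the median log2 fold change of all genes tested was then 0.00 (DP against LL), 0.02 (LG against LL) and 0.01 (LG against DP). Levels below are scaled FPKM unless the deposited FPKM are named, and log2 fold changes are of log2(scaled FPKM + 1), which understates the change of low genes. A gene was called when its adjusted p-value was below 0.05 and its log2 fold change was at least 1 in size. The test was limma with Benjamini-Hochberg adjustment over all genes tested, and errors of log2 fold changes are SE. FPKM carry no read counts, so the depth behind each value is unknown.

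Low deposited values had a gap in LL and LG, but not in DP, that bears on several members. In LL only 9 genes had a mean FPKM from 0.5 to below 1, against 6617 genes above 0 and below 0.5 and 1676 genes from 1 to below 1.5. In LG 39 genes lay from 0.5 to below 1, against 828 from 1 to below 1.5. In DP 618 genes lay from 0.5 to below 1 and 409 from 1 to below 1.5. The same amounts recurred as the difference between pairs of neighbouring genes, and were 1.0, 1.3 and 1.5 FPKM in LL replicates 1 to 3, 1.0, 1.5 and 1.5 FPKM in DP, and 1.5, 1.2 and 1.0 FPKM in LG. In all, 10522 genes were at or above these amounts in all 9 libraries, among them the 5 members CCND3, CCNE2, CDKN1B, CDKN1C and GADD45A. How the amounts came into the table was not tested. Each result was also computed with the amounts subtracted from those genes, an alternative chosen after the values were seen, and it is given beside the members whose sign it turned or whose difference it moved most.

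Cell type markers also differed between the stages and between the DP goats. The summed level of 6 luminal epithelial markers was 819 to 1106 in LL, 269 to 522 in DP and from 733 to 891 in LG. Most of this difference was ELF5, at 440 to 676 in LL, 25.8 to 44.2 in DP and from 408 to 498 in LG, while the other 5 summed to 343 to 431, 243 to 478 and 324 to 393. The summed level of 9 leukocyte markers was 36.8 to 44.7 in LL, 73.9 to 116 in DP and from 29.5 to 40.9 in LG. DP replicate 1 had the highest sum, and the highest DP level of PTPRC, CD3E, CD3D, CD2, MS4A1 and ITGAM. It had the lowest DP level of CD14 (7.89, with 19.8 the highest) and AIF1 (19.0, with 21.7 the highest), and the middle one of CD68. DP replicate 3 stood apart in 7 fibroblast markers, with a sum of 2415 against 518 and 923 in the other DP libraries. The collagen genes and LUM made up this gap, and DCN (187 to 354 over the DP libraries), PDGFRA (23.1 to 33.4) and PDGFRB (at most 22.8) had no DP library far apart. DP replicate 1 stood apart in 4 adipocyte markers, with a sum of 20.4 against 2.57 and 3.00. None of the fibroblast and leukocyte markers was at 0 in all 3 libraries of a stage. The part of these cells in the members' differences was not tested.

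**Figure D1:**
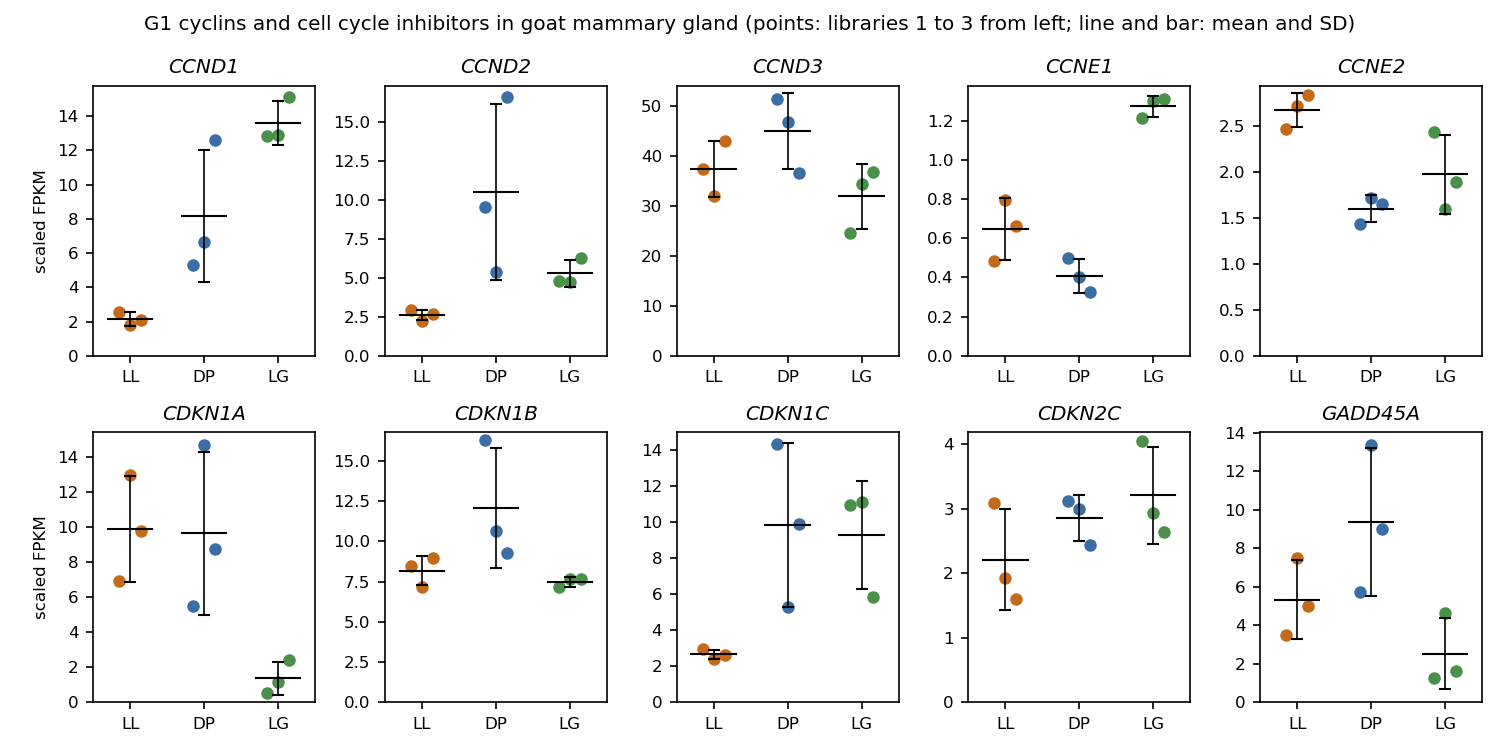
Scaled FPKM (y axis, from 0, a separate scale for each gene) of the 10 members in LL, DP and LG, with 1 point per library, the mean as a line and the SD as a bar (n = 3 per stage). CCND1 rose from 1.79 to 2.59 in LL to 12.9 to 15.1 in LG, and CDKN1A was at 0.534 to 2.42 in LG against 6.89 to 12.9 in LL.

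Among the cyclins, CCND1 and CCND2 were the ones called in any comparison. CCND1, which links growth signals to CDK4 and CDK6, lies on chromosome 29 (47930677 to 47943220). Its level was 2.59, 1.79 and 2.10 in LL, 5.33, 6.65 and 12.6 in DP, and it was 12.9, 12.9 and 15.1 in LG. The stages did not overlap on scaled values, and DP replicate 3 lay close to the LG libraries. On deposited values DP and LG overlapped, with DP replicate 3 (18.1 FPKM) above LG replicates 1 and 2 (15.4 and 15.9 FPKM). CCND1 was higher in DP than in LL by 1.47 ± 0.25 on the log2 scale (3.79-fold in the means, adjusted p = 0.000959). It was higher in LG than in LL by 2.21 ± 0.25 (6.31-fold, adjusted p = 0.000111). LG exceeded DP by 0.75 ± 0.25 (adjusted p = 0.0423), below the fold threshold, and by 1.07 without DP replicate 3 (adjusted p = 0.00155), where it was called. With any other library left out the limma adjusted p-value of this difference rose above 0.05 (0.0546 to 0.125).

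CCND2, on chromosome 5 (104680841 to 104709108), is the D-type cyclin best known in lymphocytes and ovarian granulosa cells. Its level was 2.91, 2.26 and 2.71 in LL, 9.53, 5.40 and 16.6 in DP, and it was 4.82, 4.74 and 6.31 in LG. Every DP and LG library was above every LL library, while DP and LG overlapped. DP exceeded LL by 1.55 ± 0.30 (mean levels of 10.5 and 2.63, adjusted p = 0.00211). LG exceeded LL by 0.79 ± 0.30 (2.01-fold), which missed the threshold (adjusted p = 0.0521), and the difference between LG and DP was -0.76 ± 0.30 (adjusted p = 0.0775). The highest CCND2 value was that of DP replicate 3, the library with the highest fibroblast sum. Without it DP still exceeded LL by 1.18 (adjusted p = 0.00199). CCND2 overlaps the long non-coding RNA gene LOC108636066 on the other strand over 1731 bases, and the libraries did not keep strand, so reads of the overlap cannot be assigned to either gene.

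CCND3, on chromosome 23 (33012419 to 33107462), had the highest level of all 10 members at each stage, but its value was not a separate measurement. In every library the deposited FPKM of its neighbour USP49 was that of CCND3 plus 0.02, and MED20, another gene of the same strand, was lower than CCND3 by 1.84 to 2.34 FPKM. The 3 genes code for a cyclin, a deubiquitinase and a Mediator subunit, so no statement about CCND3 alone can be made from this row. The shared value was 37.4, 32.0 and 43.1 in LL, 51.6, 46.9 and 36.6 in DP, and it was 24.6, 34.3 and 36.9 in LG. All stages overlapped, and no comparison passed the threshold (log2 fold changes of 0.25, -0.23 and -0.49, adjusted p = 0.304, 0.364 and 0.0898). The sign of the LG to LL difference turned with the values unscaled (0.91), and that of DP to LL with the recurring amounts subtracted (-0.19). Among the other 9 members none was linked to a neighbour in this way.

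**Figure D2:**
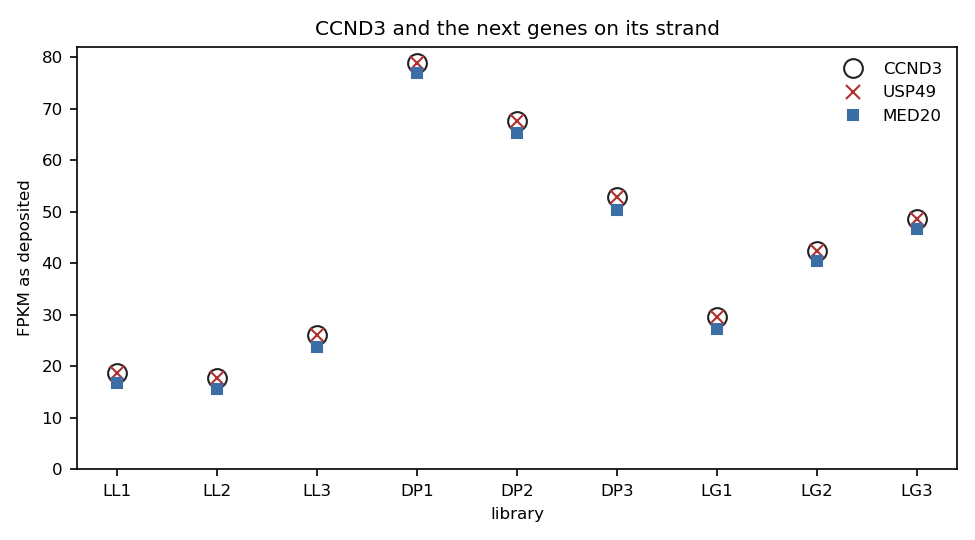
Deposited FPKM (y axis, from 0) of CCND3, USP49 and MED20 in each of the 9 libraries (x axis). The crosses of USP49 lie inside the circles of CCND3 in every library, 0.02 FPKM apart, and MED20 follows 1.84 to 2.34 FPKM lower.

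Within a library the balance between D-type cyclins does not depend on the scaling. The ratio of CCND1 to CCND2 was 0.890, 0.792 and 0.774 in LL, 0.560, 1.23 and 0.758 in DP, and it was 2.67, 2.72 and 2.39 in LG. CCND1 thus exceeded CCND2 in all 3 LG libraries and in 1 of 6 others. Neither gene was at or above the recurring amounts in all libraries, so the amounts were not subtracted from them. Their LL values nevertheless lay close to the amounts. Less these, CCND1 would be at 0.29, -0.31 and -0.23 FPKM in LL and CCND2 at 0.45, -0.05 and 0.14 FPKM. The LL ratios and shares, and the size of the differences of both genes from LL, therefore rest on values near the amounts. With 3 libraries against 3 an exact permutation test cannot go below p = 0.1, so the ratios were not tested. Of the summed FPKM of the 3 D-type cyclins, CCND1 was 4.38 to 6.04% in LL, 8.03 to 19.1% in DP and from 24.8 to 30.4% in LG. CCND2 was 5.65 to 6.79%, 9.15 to 25.2% and 9.12 to 11.4%, and the remainder is the CCND3 value shared with its neighbours.

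Neither E-type cyclin was called in any comparison. CCNE1, on chromosome 18 (41592961 to 41604655), starts DNA replication with CDK2. Its level was 0.482, 0.795 and 0.661 in LL, 0.497, 0.402 and 0.327 in DP, and it was 1.21, 1.30 and 1.31 in LG. Every LG library was above every other library, and LL and DP overlapped. CCNE1 in LG was 1.97-fold the LL mean and 3.11-fold the DP mean. The deposited LG values of 1.45, 1.60 and 1.72 FPKM lay near the recurring amounts (less these -0.05, 0.40 and 0.72 FPKM). Those of LL, 0.24 to 0.44 FPKM, lay below the gap in the low values. The size of the CCNE1 differences therefore rests on values near the gap, and its part in them was not tested. The log2 fold changes of 0.47 ± 0.12 and 0.69 ± 0.12 passed the adjusted p-value (0.0110 and 0.00247) but not the fold threshold. With a pseudocount of 0.1 in place of 1 the difference between LG and DP was 1.44 and was called, and that between LG and LL was 0.90 and was not. With quantile normalization the difference between LG and LL was -0.06.

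CCNE2, on chromosome 14 (12743232 to 12755983), is the paralog of CCNE1. Its level was 2.47, 2.71 and 2.84 in LL, 1.43, 1.71 and 1.65 in DP, and it was 2.44, 1.60 and 1.89 in LG. Every LL library was above every DP and LG library, and DP and LG overlapped. DP was lower than LL by 0.50 ± 0.13 on the log2 scale (adjusted p = 0.00805), below the fold threshold. The LL values sat just above the recurring amounts, and with these subtracted 0.230, 0.200 and 0.220 FPKM were left in LL against 0.870 to 1.19 in DP and from 0.770 to 1.48 in LG. The log2 fold change of DP to LL then turned to 0.09 and that of LG to LL, -0.31 ± 0.13 as measured, turned to 0.33. No direction can be given for CCNE2. The ratio of CCNE1 to CCNE2 was 0.195 to 0.293 in LL, 0.198 to 0.347 in DP and from 0.497 to 0.812 in LG as deposited, and 1.04 to 2.20, 0.540 to 0.639 and 1.02 to 2.08 with the amounts subtracted from CCNE2. CCNE2 overlaps INTS8 on the other strand over 278 bases.

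CDKN1A was the member that fell most in LG. It codes for p21, an inhibitor induced by DNA damage, and lies on chromosome 23 (38156010 to 38164325). Its level was 6.89, 12.9 and 9.79 in LL, 5.52, 14.7 and 8.75 in DP, and it was 0.534, 1.15 and 2.42 in LG. All 3 LG libraries were below all 6 others, and LL and DP covered the same range. LG was lower than LL by 2.24 ± 0.37 on the log2 scale (the LL mean was 7.22-fold the LG mean, adjusted p = 0.00100). LG was lower than DP by 2.15 ± 0.37 (7.05-fold in the means, adjusted p = 0.00196). Both differences were also present in the deposited values without overlap. The deposited LG values were 0.64, 1.42 and 3.18 FPKM, below or close to the recurring amounts in replicates 1 and 2. Less the amounts they would be -0.86, 0.22 and 2.18 FPKM, so the size of the differences rests in part on values near the gap. DP and LL differed by -0.08 with a 95% interval from -0.91 to 0.74 (adjusted p = 0.855), which leaves room for a difference of either sign.

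CDKN1B codes for p27 and lies on chromosome 5 (95744889 to 95750095). Its level was 8.46, 7.16 and 8.93 in LL, 16.3, 10.6 and 9.30 in DP, and it was 7.14, 7.64 and 7.63 in LG. Every DP library was above every LL and LG library, by a small margin for DP replicates 2 and 3. DP exceeded LL by 0.48 ± 0.19 (1.48-fold), which missed the threshold (adjusted p = 0.0509). LG was lower than DP by 0.59 ± 0.19 (adjusted p = 0.0344), below the fold threshold. DP replicate 1 had the highest value, and it also had the highest leukocyte sum (116) and adipocyte sum (20.4). Not every leukocyte marker was highest there, as given above. Without it the difference between DP and LL was 0.26 (adjusted p = 0.157) and that between LG and DP -0.37 (adjusted p = 0.0770). LG and LL differed by -0.11 ± 0.19 (adjusted p = 0.640).

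CDKN1C, the inhibitor p57, imprinted in mammals, lies on chromosome 29 (49752538 to 49755070). Its level was 2.95, 2.42 and 2.61 in LL, 14.3, 5.27 and 9.91 in DP, and it was 10.9, 11.1 and 5.85 in LG. The LL libraries were below all others, and DP and LG overlapped. CDKN1C was higher in DP than in LL by 1.48 ± 0.32 (3.70-fold, adjusted p = 0.00353) and in LG than in LL by 1.45 ± 0.32 (3.49-fold, adjusted p = 0.00445). LG and DP differed by -0.03 with a 95% interval from -0.74 to 0.68, and by 0.05 with the recurring amounts subtracted. The deposited LL values were 0.470, 0.0400 and 0.0800 FPKM above the recurring amounts, and the differences from LL were 2.52 and 2.57 with the amounts subtracted. DP replicate 1, with the highest leukocyte and adipocyte sums, again held the highest value, and without it DP exceeded LL by 1.18 (adjusted p = 0.0103).

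CDKN2C codes for p18 and lies on chromosome 3 (25479545 to 25485500). Its level was 3.09, 1.93 and 1.60 in LL, 3.12, 2.99 and 2.45 in DP, and it was 4.05, 2.93 and 2.63 in LG. All stages overlapped and no comparison passed the threshold. The log2 fold changes were 0.29 for DP to LL (95% interval -0.13 to 0.71, and -0.08 with the recurring amounts subtracted from other genes), 0.40 for LG to LL (-0.02 to 0.82) and 0.12 for LG to DP (-0.30 to 0.54).

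GADD45A, on chromosome 3 (43245995 to 43249271), codes for a small stress protein that binds PCNA and CDK1. Its level was 3.48, 7.52 and 5.02 in LL, 5.73, 13.4 and 8.98 in DP, and it was 1.28, 4.65 and 1.65 in LG. All DP libraries were above all LG libraries, and LL overlapped both. LG was lower than DP by 1.61 ± 0.39 on the log2 scale (the DP mean was 3.71-fold the LG mean, adjusted p = 0.0105). The difference between LG and LL was -0.92 ± 0.39 (adjusted p = 0.0730) and was -1.32 and called without LG replicate 2, the highest of the LG libraries. DP and LL differed by 0.69 ± 0.39 (adjusted p = 0.149). CDKN1A and GADD45A had their libraries in the same order within LL and within DP, with replicate 2 highest and replicate 1 lowest, but not within LG.

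**Figure D3:**
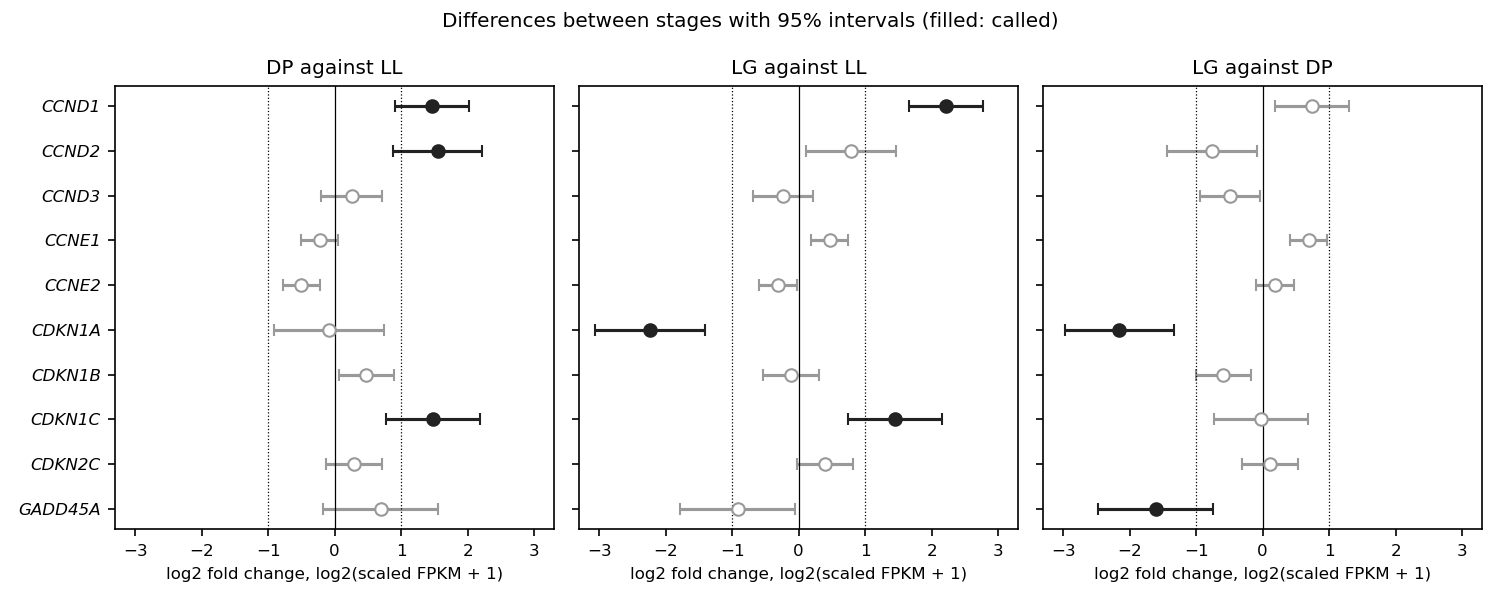
Log2 fold changes (x axis, on log2(scaled FPKM + 1)) of the 10 members in DP against LL, LG against LL and LG against DP, with 95% intervals from limma over 9 libraries. Filled points are called and dotted lines mark the fold threshold of 1 in size. CCND1 lies at 2.21 and CDKN1A at -2.24 in LG against LL.

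Counted over the members, 3 of 10 were called higher in DP than in LL (CCND1, CCND2 and CDKN1C), where 13.8% of all genes tested were, and 0 were called lower, where 8.79% were. By the limma adjusted p-value alone these 3 were higher (background 28.2%), and CCNE2 was lower as well (background 28.6%), a direction that turned as given above. In LG against LL 2 were called higher (CCND1 and CDKN1C, background 10.7%) and 1 lower (CDKN1A, background 6.61%), and by the limma adjusted p-value alone CCNE1 was higher too (3 of 10, background 25.6%) with 1 lower (background 24.6%). In LG against DP 0 were called higher (background 6.37%) and 2 lower (CDKN1A and GADD45A, background 6.88%), while by the limma adjusted p-value alone CCND1 and CCNE1 were higher (background 18.4%) and CDKN1A, CDKN1B and GADD45A lower (background 16.4%). On scaled values, 4 members lay higher and 1 lower without overlap in DP against LL (background 32.5 and 33.4%), 4 and 2 in LG against LL (background 31 and 30.2%), and 2 and 3 in LG against DP (background 25.1 and 22.8%). The median log2 fold change of the members was 0.38, 0.15 and -0.26 in the 3 comparisons, beside 0.00, 0.02 and 0.01 for all genes tested. The comparisons share libraries, so their counts are not independent. The 8 calls of 30 member results kept their direction and the call under every alternative run. These included each library left out in turn, the values unscaled and the recurring amounts subtracted. That last setting took nothing off CCND1, CCND2 and CDKN1A and could change their calls only through the other genes. Of the 10 members 5 were called in no comparison (CCND3, CCNE1, CCNE2, CDKN1B and CDKN2C).

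The order of the members by mean level differed between the stages. After the shared CCND3 value, the highest in LL were CDKN1A (9.88), CDKN1B (8.18) and GADD45A (5.34), whose neighbours in this order overlapped, followed by CCNE2, CDKN1C, CCND2, CDKN2C and CCND1 between 2.67 and 2.16, which also overlapped in turn, and by CCNE1 (0.646). In DP CDKN1B (12.1), CCND2 (10.5), CDKN1C (9.84), CDKN1A (9.65), GADD45A (9.36) and CCND1 (8.19) formed 1 run of overlapping neighbours, above CDKN2C (2.85), CCNE2 (1.60) and CCNE1 (0.409). In LG CCND1 came next (13.6), above CDKN1C (9.30) and CDKN1B (7.47), which overlapped, and then CCND2 (5.29). Below CCND2 the genes CDKN2C (3.21), GADD45A (2.53), CCNE2 (1.97), CDKN1A (1.37) and CCNE1 (1.27) overlapped from each to the next. CDKN1A thus went from the highest mean of the separately measured members in LL to the last but 1 in LG, and CCND1 from the last but 1 in LL to the highest in LG. The LL order depends on the recurring amounts. Less these, CCNE2 and CDKN1C had means of 0.217 and 0.197 FPKM in LL. CCND1 (1.18 FPKM) and CCNE1 (0.360 FPKM) lay above that with nothing subtracted. Less the amounts as well, CCND1 would be at 0.29, -0.31 and -0.23 FPKM and CCNE1 at -0.76, -0.86 and -1.1 FPKM. The order of these genes in LL therefore cannot be given.

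The ratios of cyclin to inhibitor within a library differed between the stages as well. CCND1 relative to CDKN1A was 0.376, 0.138 and 0.214 in LL, 0.967, 0.454 and 1.44 in DP, and it was 24.1, 11.2 and 6.24 in LG. The 3 stages did not overlap. CDKN1A was at 0.64 and 1.42 FPKM in LG replicates 1 and 2, below or close to the recurring amounts. The size of the LG ratios that hold CDKN1A therefore rests on low values, as that of the LL ratios rests on low CCND1 values. CCND1 relative to CDKN1B was 0.306, 0.250 and 0.235 in LL, 0.327, 0.626 and 1.35 in DP, and it was 1.80, 1.69 and 1.98 in LG, again in 3 ranges without overlap. CDKN1A relative to CDKN1B was 0.815, 1.81 and 1.10 in LL, 0.339, 1.38 and 0.942 in DP, and it was 0.0749, 0.151 and 0.317 in LG. The LG libraries were below all others, DP replicate 1 closest to them. With the recurring amounts subtracted from CDKN1B the ratio of CCND1 to CDKN1B was 0.325 to 0.402 in LL, 0.341 to 1.52 in DP and from 1.94 to 2.20 in LG, so that LL and DP then overlapped.

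**Figure D4:**
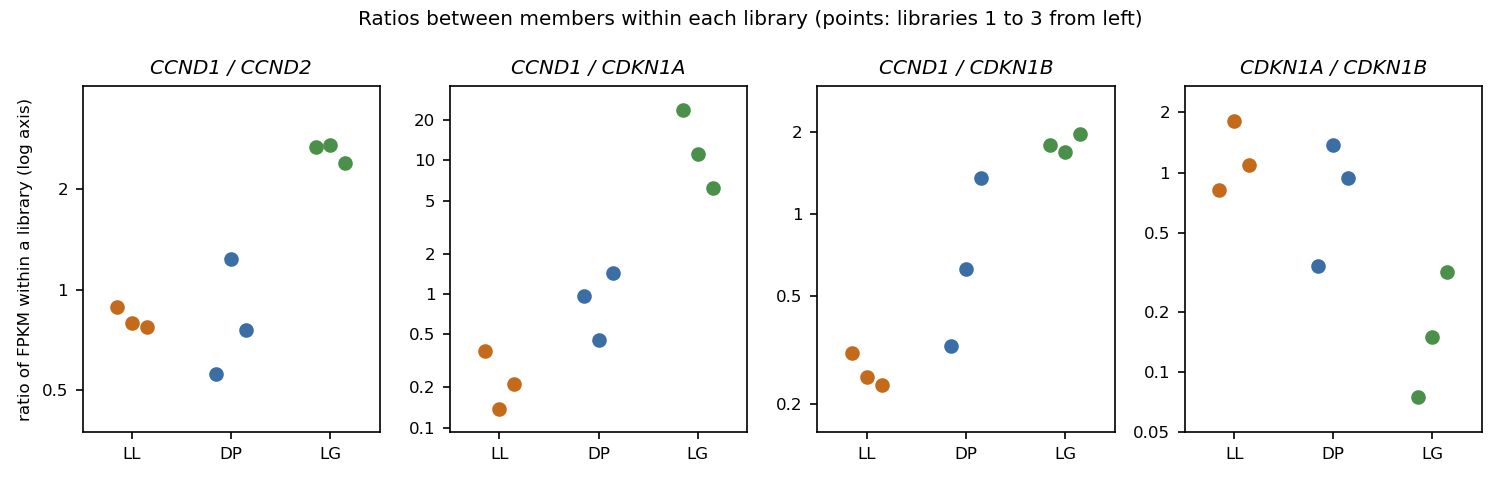
Ratios of deposited FPKM within each library (y axes, logarithmic, a separate scale per panel) for CCND1 to CCND2, CCND1 to CDKN1A, CCND1 to CDKN1B and CDKN1A to CDKN1B in LL, DP and LG, with 1 point per library. The LG libraries lie outside the range of the others in all 4 panels, with CCND1 at 6.24 to 24.1 times CDKN1A against 0.138 to 1.44 times elsewhere. The margin is narrow for CDKN1A to CDKN1B, at 0.317 in LG replicate 3 and 0.339 in DP replicate 1.

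The genes around the members were taken as 7 lists of 67 genes in all, of which 64 were tested. E2F7 and E2F8 did not pass the filter on low values and CDKN2A was not analysed here. In DP against LL 3 were called higher (background 13.8%) and 6 lower (8.79%). In LG against LL 10 (10.7%) and 5 (6.61%) were called, and in LG against DP 10 (6.37%) and 3 (6.88%). These shares of all genes tested, and those given above for the adjusted p-value alone, also apply to each list below. The split in DP against LL depended on the scaling. It was 32 higher and 2 lower on unscaled values (background 54.3 and 2.51%). After scaling by the total without the 10 highest genes it was 15 and 3 (30.5 and 4.05%). In LG against LL it was 37 and 2 unscaled (45.6 and 2.35%). In LG against DP it was 5 and 4 with the latter scaling (3.15 and 14.5%).

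Of 13 genes of S phase and mitosis, 9 were called higher in LG than in LL and 6 than in DP, with 0 lower in both, and the median log2 fold changes were 1.49 and 0.80. CCNA2 was among those not called, at 0.21 and 0.06 (adjusted p = 0.337 and 0.822). In DP against LL 1 was called higher and 0 lower, with a median of 0.36. TOP2A, the topoisomerase of mitotic chromosomes, was at 0.868 to 1.64 in LL, 0.827 to 1.64 in DP and from 6.64 to 13.3 in LG, and exceeded DP in LG by 2.26 ± 0.24 (adjusted p = 0.000179). CDK1, the kinase of mitosis, was at 0.0826 to 0.181 in LL, 0.507 to 1.32 in DP and from 3.33 to 8.43 in LG (2.57 ± 0.27 for LG to LL, adjusted p = 7.47e-05). Its partner CCNB1 was at 0 to 0.396, 0.881 to 1.33 and 3.51 to 7.55 (2.48 ± 0.23, adjusted p = 3.78e-05). MCM4, a subunit of the replicative helicase, was at 0.161 to 0.231, 1.92 to 2.40 and 3.56 to 5.33 (2.21 ± 0.14, adjusted p = 5.09e-06). The LL values of CDK1, CCNB1 and MCM4 lay below the gap in the low values described above. LG exceeded both other stages without overlap for all 4 genes.

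Among the kinases and activators of G1, CDK2, the partner of the E-type cyclins, was the only 1 of 7 called. It was at 0.101 to 0.347 in LL, 2.13 to 2.76 in DP and from 4.23 to 6.10 in LG, with log2 fold changes of 1.42 ± 0.15 for DP to LL (adjusted p = 5.8e-05) and 2.25 ± 0.15 for LG to LL (adjusted p = 6.86e-06). The former was 0.98 and not called with quantile normalization. Its LL values also lay below the gap. Of the 11 tested genes of the RB and E2F list 0 were called in any comparison, and by the limma adjusted p-value alone 3 were higher and 2 lower in DP against LL, 4 and 1 in LG against LL, and 1 and 0 in LG against DP. Of 11 genes for the turnover of cyclins and inhibitors 1 was called, CKS1B, a cofactor in the degradation of p27. It was at 8.22 to 11.7 in LL, 6.57 to 8.63 in DP and from 18.0 to 23.6 in LG, and exceeded DP in LG by 1.43 ± 0.18 (adjusted p = 0.000375), or 0.99 and not called after scaling by the total without the 10 highest genes. Of 5 upstream transcription factors KLF4, a factor that can induce p21, was called. It was at 3.15 to 5.17 in LL, 5.41 to 20.7 in DP and from 1.46 to 2.01 in LG, and was lower in LG than in DP by 2.04 ± 0.37 (adjusted p = 0.00252). KLF4 was also called higher in DP than in LL (1.11 ± 0.37, adjusted p = 0.0270), a call that was lost without DP replicate 3 (0.62), without LL replicate 1 (0.96) or 2 (1.13), with no filter on low values and with a fit of the 2 stages alone (both 1.11, adjusted p = 0.0504 and 0.0570).

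Of 11 stress response genes, 4 were called lower and 0 higher both in DP and in LG against LL by limma, where 2 and 1 were higher by the adjusted p-value alone, while LG against DP gave 1 higher and 1 lower. PLK2, a stress-responsive kinase, was at 219 to 304 in LL, 16.2 to 27.2 in DP and from 28.4 to 93.8 in LG, and was lower in DP than in LL by 3.47 ± 0.38 (adjusted p = 7.48e-05). SESN2, a stress protein that restrains growth signalling, was at 10.3 to 30.7 in LL, 0.590 to 1.31 in DP and from 0.478 to 0.852 in LG, and was lower in LG than in LL by 3.32 ± 0.34 (adjusted p = 6.37e-05). PLK3 was at 6.74 to 8.79, 2.04 to 3.54 and 0.935 to 2.11 (-1.81 ± 0.20 for LG to LL, adjusted p = 0.000108). These 3 were called lower than LL in DP and in LG, while CDKN1A was called lower in LG and not in DP. Unscaled, PLK3 was no longer called in either comparison (-0.12 in DP and -0.88 in LG), and by the total without the 10 highest genes it was at -0.65 in DP and not called. CCNG1, an atypical cyclin, was at 109 to 168 in LL, 35.6 to 65.8 in DP and from 109 to 199 in LG, and was higher in LG than in DP by 1.65 ± 0.29 (adjusted p = 0.00210). It was lower in DP than in LL by 1.47 ± 0.29 (adjusted p = 0.00212), a call that was lost unscaled (-0.07), with quantile normalization (-0.71) and with the total without the 10 highest genes (-0.71).

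Of the paralogs of GADD45A, GADD45B was called lower in LG than in DP, as GADD45A was, and GADD45G was called higher. GADD45G was at 36.2 to 92.4 in LL, 10.6 to 16.5 in DP and from 90.5 to 133 in LG, and was higher in LG than in DP by 2.94 ± 0.32 (adjusted p = 0.000214) and lower in DP than in LL by 2.11 ± 0.32 (adjusted p = 0.000512). GADD45B was at 5.77 to 11.5, 7.30 to 16.7 and 1.80 to 4.31, and was lower in LG than in DP by 1.48 ± 0.35 (adjusted p = 0.0102). BTG2, an antiproliferative gene, was at 17.3 to 25.7, 5.70 to 11.1 and 16.7 to 36.5, and was higher in LG than in DP by 1.43 ± 0.31 (adjusted p = 0.00652). Unscaled, GADD45G in DP against LL was at -0.75 and not called, and after scaling by the total without the 10 highest genes BTG2 in LG against DP was at 0.98 and not called. Of the 6 genes of this list that were tested, 0 were called higher and 2 lower in DP against LL, 0 and 1 in LG against LL, and 2 and 1 in LG against DP.

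**Figure D5:**
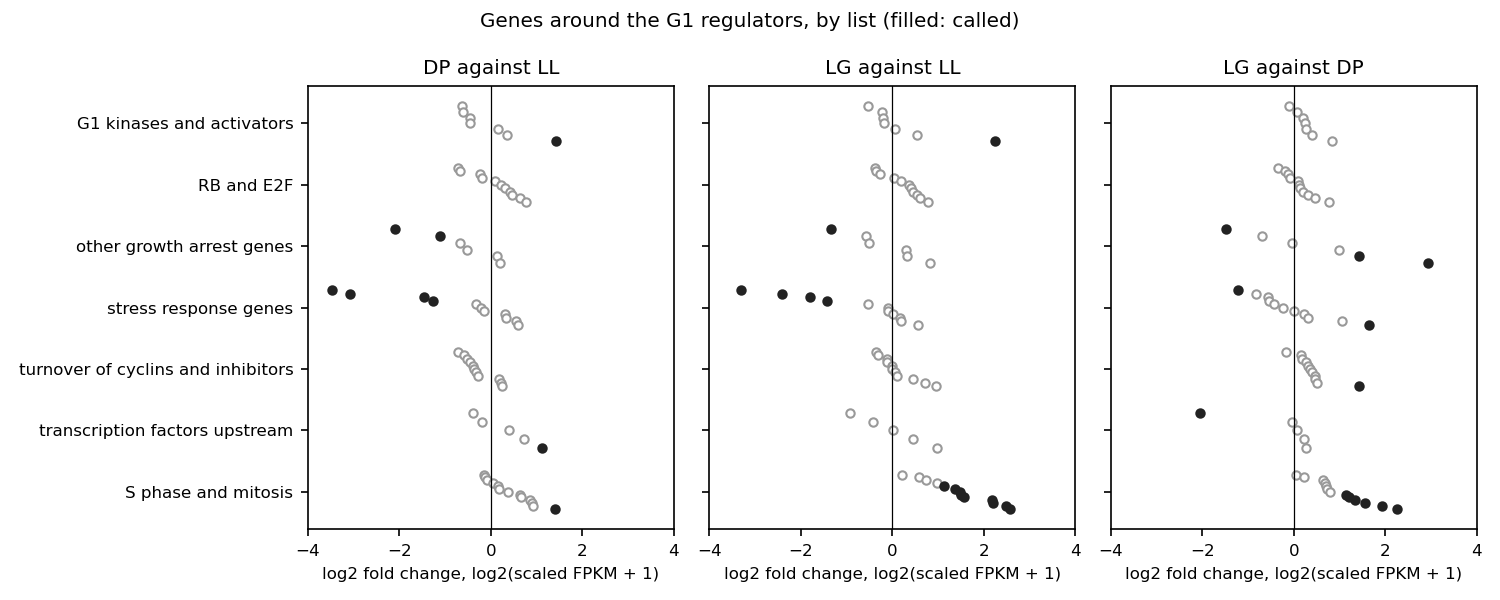
Log2 fold changes (x axis, on log2(scaled FPKM + 1)) of the 64 tested genes of the 7 lists (y axis) in the 3 comparisons, with 1 point per gene, ordered by value within a list and filled where called. The 13 genes of S phase and mitosis lie above 0 both in LG against LL and against DP, with medians of 1.49 and 0.80.

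For each member the 2 genes with the most similar values over the 9 libraries, members left out, were found by Pearson's r on the log2 scaled values. The libraries share the 3 stages, so r is high for many genes and describes these libraries only. The nearest to CCND1 were PRR30 (0.99) and NT5DC2 (0.99), and to CCND2 ACOX2 (0.99) and HEG1 (0.98). CCNE1 was nearest to FAM229B (0.99) and PRSS8 (0.98), and CCNE2 to CENPP (0.99) and MTFR2 (0.99). CDKN1A was nearest to MAPRE3 (0.98) and KLF9 (0.98). CDKN1B was nearest to CD8B, a chain of the T cell co-receptor CD8 (0.99), and TESPA1, a T cell signalling gene (0.98). CDKN1C was nearest to FAAP20 (0.99) and IFI44L (0.97), CDKN2C to TPRKB (0.93) and SLC47A1 (0.93), and GADD45A to SNRK (0.95) and ENTPD4 (0.94). For CCND3 they were USP49 (1.00) and MED20 (0.99), the neighbours that share its value.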

How the data were processed

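RNA was measured in 9 libraries of goat mammary tissue (LL, DP and LG, 3 each), made with a kit that does not keep strand. The submitters' processing notes name FastQC, Trimmomatic, HISAT2, SAMtools and HTSeq, and the study's methods describe FPKM from assembled transcripts. The deposited table holds 9 value columns for 23499 genes and names neither a unit nor a genome build. The deposited values were treated as gene FPKM made by the authors on account of their decimals and unequal library totals, and 0 value columns were left unmapped. Coordinates are those of the table. Of its gene identifiers, 23465 were found in the RefSeq gene table of ARS1.2 with the same symbol, start and end, which was used for strand and neighbours.

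Values were divided by median-ratio factors from 15905 genes, and log2 was taken after adding 1. A gene entered the limma fit when 3 or more libraries held 0.5 FPKM or more, which left 14701 genes. The fit used limma 3.58.1 in R 4.3.3 (mean-variance trend, all 9 libraries, no covariates). P-values set a difference between stages against the spread between goats within stages, pooled over the 3 stages and moderated across genes by limma. All adjusted p-values are Benjamini-Hochberg values from limma, and intervals are 95%. The procedure was tested on simulated data. The other values come from Python 3.11.15 (numpy 2.4.6, pandas 2.3.3). Each gene was compared with the next 8 genes on either side on its strand. A pair was called linked when 1 gene followed a straight line in the other within 1% of its range. The line could have any slope and constant and any multiple of the recurring amounts added, and 1511 genes were linked. Replicate numbers were not taken as pairs of libraries.

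The 10 members and the lists were chosen with earlier results of these data known. Named were all members, up to 4 called genes per list with the largest change in any comparison, and the 2 genes most similar to each member. One gene of the lists is not reported here and is in none of the counts. Alternatives covered scaling, pseudocount, filter, threshold, libraries, replicate block, trend, linked genes and recurring amounts. No sequences were used here.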

Additional observations from a re-analysis of the deposited data

How the results depend on the processing

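The 8 member calls kept direction and threshold under all alternatives, though the recurring amounts were not subtracted from CCND1, CCND2 or CDKN1A. Without scaling, 8 members were called higher in DP against LL and 4 in LG against LL (CCND2 and CDKN2C added), and 34 and 39 pathway genes were called in these comparisons, where the median of all genes moved to 1.09 and 0.93 and 54.3 and 45.6% of all genes were called higher. Scaling by the total without the 10 highest genes gave 6 members higher in DP against LL (CCND3, CDKN1B and GADD45A added), 4 lower in LG against DP (CCND2 and CDKN1B added) and 18 pathway genes in DP against LL, with medians of 0.62, 0.23 and -0.37 over all genes, of which 30.5% were called higher in DP against LL and 14.5% lower in LG against DP. A pseudocount of 0.1 gave 1 member higher in LG against DP (CCNE1, background 8.52%) and 15 and 23 pathway genes in DP and LG against LL. Of all genes, 19.2% were then called higher and 11.3% lower in DP against LL, and 16 and 10.6% in LG against LL. The adjusted p alone gave 1 member lower in DP against LL, 2 higher in LG against DP, and 35, 33 and 28 pathway genes. By it 28.2% of all genes were higher and 28.6% lower in DP against LL. The shares were 25.6 and 24.6% in LG against LL, and 18.4 and 16.4% in LG against DP. The cause was not tested, beyond the thresholds' and scalings' own construction.

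With libraries left out in turn, members called were 3 (higher) and 0 (lower) in DP against LL, 2 and 1 to 2 in LG against LL (2 without LG replicate 2), and 0 to 1 (1 without DP replicate 3) and 2 to 3 (CCND2 at -1.12 without DP replicate 2) in LG against DP. Pathway genes called were 8 to 10, 15 to 18 and 12 to 14. CCND1 made up 4.67 to 5.50% of D-type cyclin FPKM in LL, 9.66 to 15.2% in DP and from 25.3 to 28.2% in LG, and CCND2 5.96 to 6.53%, 11.7 to 19.8% and 9.97 to 11.1%. The remainder, 88.0 to 89.4%, 66.7 to 78.6% and 60.7 to 64.7%, is the CCND3 value shared with its neighbours, so all these shares depend on that value.

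Of the differences whose sign turned, BTG2 in DP against LL had been called, and CCNE2 and CKS1B in DP against LL and CCNE1 in LG against LL had passed the adjusted p alone. In DP against LL these were, without scaling, CCNE1 0.24, CCNE2 0.43, CDKN1A 1.17, BTG2 0.19, CKS1B 0.79 and TOP2A 0.65, and by the total without the 10 highest genes CCNE1 0.039, CCNE2 0.019, CDKN1A 0.61, CKS1B 0.22 and TOP2A 0.34. Also in DP against LL were CDKN1A with quantile normalization (0.018), without LL replicate 2 (0.11) and without DP replicate 1 (0.22), in a range of -0.41 to 0.22 over the libraries left out, GADD45B without LL replicate 2 (-0.12) and DP replicate 3 (-0.22), TOP2A without LL replicate 3 (0.037) and DP replicate 3 (0.032; range -0.23 to 0.037), and, with the recurring amounts subtracted, CCND3 -0.19, CCNE2 0.095, CDKN2C -0.082 and GADD45B -0.027. In LG against LL these were, without scaling, CCND3 0.91, CCNE2 0.47 and CDKN1B 0.91, by the total CCND3 0.041 and CDKN1B 0.14, with quantile normalization CCNE1 -0.058, and with the amounts subtracted CCNE2 0.33, BTG2 -0.012 and CCNG1 -0.24. CCNG1 in that comparison was also at -0.016 without LG replicate 1 (range to 0.41). In LG against DP these were CCNE2 -0.13 and CDKN2C -0.26 by the total, CDKN2C -0.067 without scaling and -0.023 without LG replicate 1 (range to 0.21), and CDKN1C 0.046 with the amounts subtracted, 0.27 without DP replicate 1, 0.023 without DP replicate 3 and 0.24 without LG replicate 3 (range from -0.38).

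Same-numbered libraries of different stages had deviations correlated at -0.11 to 0.20 (median 0.06) and others at -0.22 to 0.07 (median -0.003). The best match of a library in another stage had the same number in 10 of 18 cases. The numbers were not taken as pairs, and whether they mark a shared batch was not tested. A replicate block left the member calls at 3 and 0, 2 and 1, and 0 and 2, and the pathway genes called at 9, 15 and 14. Depth is unknown, and 3 goats per stage limit every interval.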
